A study of Mus musculus with 16 samples.

Results

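The comparison of labelled genotypes in the home cage covers 4 bulk RNA libraries of hippocampal CA1, 2 labelled wild type and 2 labelled N3 -/-, at the baseline of a study of NEIL3-deficient mice. A gene was a member when its FPKM (fragments scaled to transcript length and library depth) was 1 or more in at least 2 of these 4 libraries, a rule that does not use the labels. This gave 11639 genes, of 18257 listed for the home cage and 17986 listed for both the home cage and exploration. Of the members, 11045 reached 1 FPKM in all 4 libraries and 326 in exactly 3. Another 102 reached it in 1 library of each group, 74 through the wild-type-labelled pair alone and 92 through the N3 -/--labelled pair alone. At the edge of the rule, the second-highest of the 4 values was 1.0 FPKM in the lowest member and 0.99 FPKM in the highest gene left out.

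Every mouse was male, 3 to 6 months old and of the background strain given as C57Bl6, and the labels name no substrain. Home cage mice had no intervention. The series lists 16 samples, 10 of which have values here, and 6 samples labelled with the learning condition are not analysed here. Another 6 libraries with values, 3 of each labelled genotype, came from mice that had explored an open field for 20 min a day over 1 week, with death 20 min after the end of the final session. CA1 was cut from frozen sections of 8 µm with a laser dissection microscope. Each library is taken as 1 mouse, as the series' design text gives 2 animals of each genotype at baseline, so every home cage value below has n = 2 in each group. The libraries are called WT-labelled 1 and 2 and KO-labelled 1 and 2. Where values are set against each other, the WT-labelled pair comes first, and a log2 change is KO-labelled minus WT-labelled.

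Neil3 encodes a DNA glycosylase, an enzyme that starts base excision repair by cutting an oxidised or otherwise damaged base from DNA. The labels give the mutant genotype as N3 -/- and do not describe the targeted allele. CA1 is the output field of the hippocampus, in which pyramidal neurons with dense glutamatergic input are mixed with interneurons, glia and vessel cells, and it is needed for spatial memory. CA1 neurons also differ along the long axis of the hippocampus, and the labels do not say which stretch of it was cut.

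The Neil3 values went against the labels. Neil3 (gene ID 234258) was listed at 0 FPKM in WT-labelled 1 and 2, whereas KO-labelled 1 and 2 had 13.77 and 15.22 FPKM. The groups did not overlap, and the gene that should be missing was measured in the libraries labelled as lacking it. On the log2(FPKM + 1) scale used throughout, the difference was 3.95 (SE 0.20, limma adjusted p = 6.41e-07). After exploration the same pattern stood, with 0, 0 and 0.05 FPKM in the WT-labelled and 15.13, 11.85 and 8.35 FPKM in the KO-labelled libraries. A value per gene does not show which exons gave the fragments, so a transcript from a disrupted allele and exchanged labels cannot be told apart here. All directions below are those of the labels as deposited. Neil3 lies on chromosome 8 from 53586867 to 53639065 (RefSeq, GRCm38.p6). Its promoter, at the start that RefSeq annotates, is shown because the gene was listed at 0 in one labelled genotype. Where its transcripts started was not measured. It runs from 250 bases before to 50 after the start, chr8:53639016-53639315 on the minus strand, and is all in lower case because it held none of the 4 motifs searched below.
Neil3: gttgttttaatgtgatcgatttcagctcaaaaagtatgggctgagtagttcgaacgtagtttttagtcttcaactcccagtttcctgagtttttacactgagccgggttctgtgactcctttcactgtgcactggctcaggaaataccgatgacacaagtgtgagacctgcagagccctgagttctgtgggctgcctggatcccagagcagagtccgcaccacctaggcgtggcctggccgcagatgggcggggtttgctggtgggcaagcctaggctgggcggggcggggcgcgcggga

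The 4 libraries were alike in total but differed in markers of other cell types. FPKM summed to between 405722.2 and 431424.6, and 11431 to 11623 genes reached 1 FPKM. WT-labelled 1 stood apart in markers of neighbouring tissue. Ttr, the transthyretin gene of the choroid plexus, was at 218.70 FPKM there, at 3.89 FPKM in WT-labelled 2, at 4.24 FPKM in KO-labelled 1 and at 0.73 FPKM in KO-labelled 2. Pcp4, a calmodulin regulator abundant in CA2 pyramidal neurons, was at 84.32 FPKM in WT-labelled 1, 10.66 FPKM in WT-labelled 2, and 5.05 and 9.43 FPKM in the KO-labelled pair. Amigo2, an adhesion gene used as a CA2 marker, was at 16.11 FPKM in that library and between 0.9 and 1.78 FPKM in the other 3 libraries. KO-labelled 2 stood apart in Dcn, which encodes the matrix proteoglycan decorin, with 27.24 FPKM against 2.82 FPKM in KO-labelled 1. Across genes, 41 members differed at least 2-fold on the log2(FPKM + 1) scale between the WT-labelled libraries and 27 between the KO-labelled ones. Between the groups the number was 269 for WT-labelled 1 against KO-labelled 2 and 68 for WT-labelled 2 against KO-labelled 1. Principal component 1, with 64.2% of the variance, placed the libraries at -18.74, -12.22, 10.33 and 20.63, in the order WT-labelled 1 and 2, KO-labelled 1 and 2.

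limma called 435 of 11639 genes between the labelled genotypes at an adjusted p under 0.05, or 3.74%. Higher values in the KO-labelled libraries made up 256 of these (2.20%) and lower values 179 (1.54%). The absolute log2 change of the called genes ranged from 0.30 to 5.39 with a median of 0.69, and it was 1 or more in 101 of them, 70 higher and 31 lower. All 435 had values that did not overlap between the groups, against 47.0% of all members (21.0% higher, 25.9% lower). On the plain FPKM scale, both KO-labelled values were at least 2-fold above both WT-labelled ones in 53 members, 48 of them called. Both were at most 0.5 of both WT-labelled ones in 30 members, 27 of them called. The called genes had a median level of 10.11 FPKM, against 11.2 FPKM over all members, and 29 of them were members through 1 group alone. Such a gene had to differ between the groups to some degree to be a member, so its p-value is not independent of the rule. Among the genes named below, Neil3, Ccl21b, Gm3893, Dcn, Nts and Mir703 were members through the KO-labelled pair alone. Srp54c, Oxt, Hpgd, Aga and Vcan were members through the WT-labelled pair alone.

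The count rested most on the outer library of each group. Leaving out WT-labelled 1 left 15 called genes, 13 of them among the 435, and leaving out KO-labelled 2 left 13, of which 12 were among the 435. Without WT-labelled 2 the count was 193 and without KO-labelled 1 it was 492. KO-labelled 2 was the higher of its pair in 202 of the 256 genes called higher, and WT-labelled 1 was the lower of its pair in 203 of them. Among the 179 genes called lower, KO-labelled 2 was the lower in 120 and WT-labelled 1 the higher in 113. The exploration libraries enter this contrast only through the shared spread, and the count moved with them too. It was 230 without WT-labelled exploration library 1, 252 without KO-labelled exploration library 2, and 604 without KO-labelled exploration library 1. Fitting only the 4 home cage libraries called 326 genes (2.80%), 271 of them shared with the 435. In that fit and in the fit over all 10 libraries, 1921 and 2155 genes had an unadjusted p under 0.05.

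**Figure D1:**
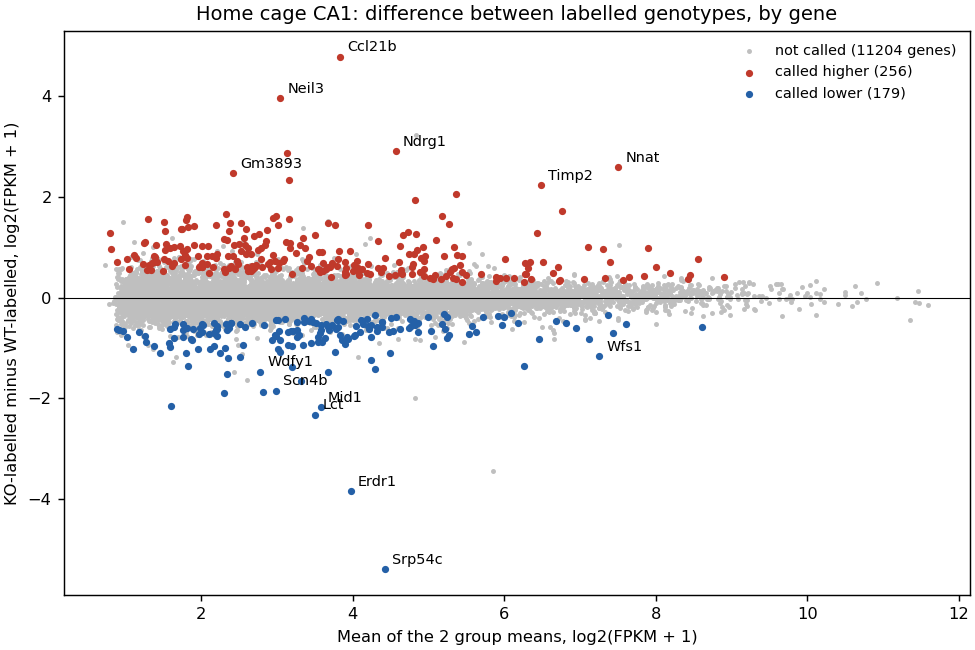
Difference between the labelled genotypes (KO-labelled minus WT-labelled, log2(FPKM + 1), y axis) against the mean level (x axis, same scale) for the 11639 member genes, 1 point per gene. The 256 genes called higher are red, the 179 called lower are blue, and most members lie close to 0 (median -0.02).

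The largest called rises were in genes of very different function. Ccl21b, a chemokine that guides cells carrying the receptor Ccr7, was listed at 0 FPKM in WT-labelled 1 and 2 and measured 26.76 and 26.14 FPKM in KO-labelled 1 and 2 (log2 change 4.78, SE 0.21, adjusted p = 1.91e-07). Gm3893, a transcribed pseudogene that lies beside it on chromosome 4, was at 0.56 and 0.61 FPKM against 5.79 and 10.37 FPKM (2.47, SE 0.21, adjusted p = 1.70e-04). Both have near-identical copies in the genome, so the assignment of their fragments is uncertain. They kept their call whichever of the 10 libraries was left out.

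A second set rose in both KO-labelled libraries, with the higher value in KO-labelled 2. Ndrg1, a gene known to respond to hypoxia and other stress, was at 3.27 and 5.61 FPKM in the WT-labelled libraries, while the KO-labelled libraries had 27.44 and 54.45 FPKM (log2 change 2.90, SE 0.43, adjusted p = 0.00931). Nnat encodes neuronatin, a small membrane protein from an imprinted gene, and stood at 34.46 and 66.96 FPKM against 214.66 and 404.60 FPKM (2.59, SE 0.48, adjusted p = 0.0205). Rprm, a p53 target that arrests the cell cycle and also marks subicular neurons, was at 1.43 and 2.28 against 9.04 and 18.93 FPKM (2.32, SE 0.37, adjusted p = 0.0131). In each of these the lowest KO-labelled value was above the highest WT-labelled value by more than 3-fold. Kit, the receptor of stem cell factor, was at 7.25 and 14.56 against 34.19 and 52.61 FPKM (1.94, SE 0.37, adjusted p = 0.0209). Nr2f2, an orphan nuclear receptor that is stronger in the ventral hippocampus, was at 0.92 and 1.92 against 5.43 and 7.76 FPKM (1.66, SE 0.27, adjusted p = 0.0131). The log2 changes of Ndrg1, Nnat, Rprm, Kit and Nr2f2 were 2.59, 2.12, 2.11, 1.48 and 1.36 without WT-labelled 1 and 2.42, 2.14, 1.83, 1.64 and 1.44 without KO-labelled 2, and none of the 5 was called in either fit.

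Timp2, Fxyd6, Cpne7 and Dcn completed the 12 largest rises and were the least stable of them. Timp2, an inhibitor of matrix metalloproteinases, was at 18.48 and 45.34 against 108.81 and 180.01 FPKM (log2 change 2.23, adjusted p = 0.0391). Fxyd6, a regulator of the sodium pump, was at 9.73 and 21.87 against 56.78 and 72.24 FPKM (2.05, adjusted p = 0.0355). Cpne7, a calcium-dependent phospholipid-binding protein, was at 33.12 and 72.06 against 147.20 and 179.11 FPKM (1.71, adjusted p = 0.0380). In these 3 genes the WT-labelled libraries differed from each other by about as much as the lower KO-labelled library differed from WT-labelled 2. Dcn was at 0.20 and 0.69 against 2.82 and 27.24 FPKM (2.87, SE 0.67, adjusted p = 0.0375). Its difference was 1.42 without KO-labelled 2, and it was not called with only the 4 home cage libraries in the fit (adjusted p = 0.0556). Each of the 4 genes was called in 4 of the 10 fits that left out 1 library, and the losses included those without WT-labelled 1 (log2 changes 1.61, 1.51, 1.16 and 2.62 in the order Timp2, Fxyd6, Cpne7, Dcn) and without KO-labelled 2 (1.87, 1.88, 1.57 and 1.42).

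The largest fall was in Srp54c, a copy of the gene for the 54 kDa subunit of the signal recognition particle, which brings secretory proteins to the endoplasmic reticulum. It measured 42.52 and 39.44 FPKM in WT-labelled 1 and 2 and was listed at 0 in KO-labelled 1 and 2 (log2 change -5.39, SE 0.11, adjusted p = 8.57e-11). Its neighbouring copies on chromosome 12 behaved otherwise. Srp54a was at 17.95 and 19.43 against 12.41 and 12.26 FPKM (called, adjusted p = 0.0179). It was not called without WT-labelled 1 (-0.62), WT-labelled 2 (-0.51) or KO-labelled 2 (-0.55). Srp54b was at 32.03 and 34.56 against 37.47 and 37.45 FPKM (not called, adjusted p = 0.31). These 2 were named after their values were seen, and fragments may be split wrongly among the 3 copies. Erdr1, at the pseudoautosomal end of the X chromosome, was at 37.91 and 18.36 against 0.07 and 2.42 FPKM (-3.84, SE 0.47, adjusted p = 0.00353), and its call was lost without WT-labelled 1 (-3.34). Mid1, an X-linked ubiquitin ligase that binds microtubules and lies next to Erdr1, was at 19.58 and 17.48 against 3.26 and 3.36 FPKM (-2.18, SE 0.17, adjusted p = 1.01e-04). Wdfy1, an endosomal protein that binds phosphoinositides, was at 8.51 and 9.58 against 2.38 and 2.87 FPKM (-1.47, SE 0.14, adjusted p = 6.55e-04). In Srp54c, Mid1 and Wdfy1 the libraries of each group lay close together, and the call survived every library left out in turn.

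The other large falls included Itga7, Plekhg1, Scn4b, Olfm3, Strip2 and Lct. Itga7, the laminin-binding integrin alpha 7, was at 8.40 and 5.25 FPKM in the WT-labelled and 1.28 and 0.86 FPKM in the KO-labelled libraries (log2 change -1.90, SE 0.23, adjusted p = 0.00353). Plekhg1, a protein with a pleckstrin homology domain, was at 8.55 and 11.44 against 2.91 and 1.23 FPKM (-1.88, SE 0.26, adjusted p = 0.00744). Scn4b, the beta 4 subunit of sodium channels, which speeds repetitive firing, was at 13.80 and 8.78 against 3.87 and 1.29 FPKM (-1.85, SE 0.33, adjusted p = 0.0171). KO-labelled 2 was the lowest library in these 3 genes. Olfm3, a secreted olfactomedin that binds AMPA receptors, was at 14.25 and 13.84 against 5.39 and 2.53 FPKM (-1.66, SE 0.22, adjusted p = 0.00633). Strip2, a scaffold of a phosphatase and kinase complex, was at 19.68 and 15.52 against 7.23 and 4.42 FPKM (-1.47, SE 0.21, adjusted p = 0.00822). Lct, the gene for lactase, which also marks dentate granule neurons, was at 19.62 and 15.17 against 5.44 and 1.06 FPKM (-2.33, SE 0.44, adjusted p = 0.0206). Without WT-labelled 1, Plekhg1 was still called (-2.07), and Itga7 (-1.60), Scn4b (-1.55), Olfm3 (-1.64), Strip2 (-1.31) and Lct (-2.15) were not. Without KO-labelled 2, Olfm3 was still called (-1.24), and Itga7 (-1.75), Plekhg1 (-1.48), Scn4b (-1.30), Strip2 (-1.17) and Lct (-1.5) were not. Lct was also not called without WT-labelled 2 (-2.50).

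A pair of neuropeptide genes was among the 12 largest falls. Oxt, the precursor of oxytocin, was at 3.63 and 4.27 FPKM against 0 and 0.22 FPKM (log2 change -2.16, SE 0.44, adjusted p = 0.0258), and it was a member through the WT-labelled pair alone. Cartpt, whose peptide is released by some hippocampal neurons, was at 8.89 and 4.08 against 2.47 and 0.77 FPKM (-1.52, SE 0.34, adjusted p = 0.0328). Oxt lost its call without any one of the 4 home cage libraries (-2.25 and -2.07 without WT-labelled 1 and 2, -2.02 and -2.30 without KO-labelled 1 and 2), and Cartpt lost it without WT-labelled 1 (-1.04), KO-labelled 2 (-1.03) and 2 exploration libraries. Another peptide gene, Nts, the precursor of neurotensin, was higher, at 0 and 0.47 against 1.82 and 3.56 FPKM (1.56, SE 0.28, adjusted p = 0.0179), and it was a member through the KO-labelled pair alone. It was not called without WT-labelled 1 (1.29) or KO-labelled 2 (1.22).

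**Figure D2:**
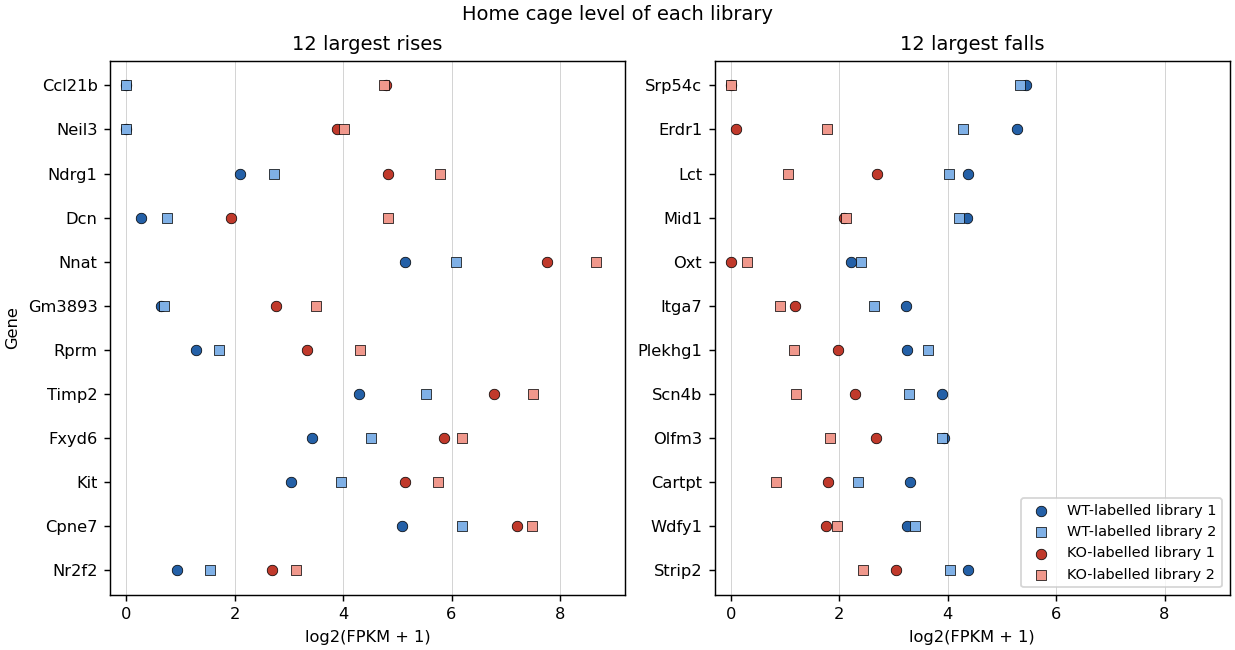
Level in each home cage library (log2(FPKM + 1), x axis) for Neil3 and the genes with the 12 largest called rises and falls (y axis), 1 marker per library. Srp54c, Mid1 and Wdfy1 show tight pairs, while Dcn, Timp2 and Nnat show a wide spread within the pairs.

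The promoters of Cartpt and Nts are shown as peptide genes that moved in opposite directions and that carry, in this window, a motif of the activity-regulated factors searched for. The motifs, read on both strands, were the cAMP element TGACGTCA, the AP-1 site TGANTCA, the hypoxia core ACGTG and the TATA box TATAAA, and none of the 4 contains another. In capitals is the cAMP element in Cartpt, chr13:99900634-99900933 on the minus strand, and the AP-1 site in Nts, chr10:102490369-102490668 on the minus strand, both RefSeq, GRCm38.p6.
Cartpt: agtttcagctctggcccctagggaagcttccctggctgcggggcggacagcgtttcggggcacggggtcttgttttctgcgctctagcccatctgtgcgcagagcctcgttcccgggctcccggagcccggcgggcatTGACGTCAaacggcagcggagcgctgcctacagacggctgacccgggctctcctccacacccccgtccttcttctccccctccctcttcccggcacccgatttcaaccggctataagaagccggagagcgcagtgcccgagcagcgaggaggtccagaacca
Nts: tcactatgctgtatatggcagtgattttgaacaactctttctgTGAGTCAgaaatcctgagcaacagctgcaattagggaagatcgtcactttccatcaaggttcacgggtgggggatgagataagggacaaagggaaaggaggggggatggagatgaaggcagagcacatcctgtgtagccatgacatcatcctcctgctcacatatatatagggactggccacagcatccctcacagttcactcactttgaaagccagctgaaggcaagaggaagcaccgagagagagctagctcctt

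Across the 9285 members with a promoter in that table, TGACGTCA was present in 3.87%, against 1.09% of the 184 called higher and 1.53% of the 131 called lower. TGANTCA was present in 5.45% of the members, 7.61% of those called higher and 6.11% of those called lower. For ACGTG the shares were 30.3%, 19% and 25.2%, and for TATAAA 8.15%, 11.4% and 10.7%. Over all 32851 promoters of the same length the cAMP element stood in 1.79%, the AP-1 site in 7.81%, the hypoxia core in 19.6% and the TATA box in 13.6%. That count is per promoter, whereas a gene above counted when any of its annotated starts held the motif. The per-gene and per-promoter shares are therefore not directly comparable. A match of letters is not evidence of binding, and these shares were not tested.

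Genes of base excision repair other than Neil3 did not pass the test. Of 27 tested members of the list, 0 were called by limma (against 3.74% of all members), and 1 had an unadjusted p under 0.05 (against 2155 of 11639). The median log2 change was -0.08, against -0.02 over all members. Of the 27, 7 were higher in the KO-labelled libraries, and the changes ran from -0.42 to 0.09. Values did not overlap in 11 that were lower and 1 that was higher, against 25.9% and 21.0% of all members. In the list of p53 and DNA damage genes, 1 of 25 was called (4%, against 3.74% of all members). This was Sesn1, a stress-induced regulator of mTOR signalling and a p53 target, at 33.60 and 30.01 FPKM against 24.03 and 20.38 FPKM (-0.50, SE 0.11, adjusted p = 0.0321). It was not called without WT-labelled 1 (-0.42), WT-labelled 2 (-0.58) or KO-labelled 2 (-0.39). Cdkn1a, the cell cycle inhibitor p21, was at 1.34 and 1.16 against 1.21 and 1.68 FPKM, and its groups overlapped (adjusted p = 0.754).

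Of 45 tested immediate early genes, which are transcribed within minutes of neuronal firing, 1 was called (2.22%, against 3.74% of all members), and the list's median log2 change was 0.09. The list had 2 calls higher and 4 lower without WT-labelled 2, 2 higher without WT-labelled 1 or without KO-labelled 1, and 0 without KO-labelled 2. The called gene was Fosl2, an AP-1 subunit, at 2.53 and 3.21 FPKM against 8.75 and 12.45 FPKM (1.57, SE 0.21, adjusted p = 0.00633), not called without WT-labelled 1 (1.44) or KO-labelled 2 (1.34). Jun, another AP-1 subunit, was at 3.04 and 8.61 against 12.58 and 22.79 FPKM (1.53, SE 0.43, adjusted p = 0.0783). Fos was at 16.28 and 2.50 FPKM in the WT-labelled and 7.16 and 6.72 FPKM in the KO-labelled libraries, so that the WT-labelled values lay on both sides of the KO-labelled ones. Its log2 change was 0.03, and it was called in opposite directions without WT-labelled 1 (1.18) and without WT-labelled 2 (-1.12). Arc, which acts at synapses, was at 186.39 and 68.75 against 144.11 and 93.36 FPKM, with the same crossing.

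Glutamate receptor genes had the highest share of calls among the 21 pathway lists. Of 32 tested members, 6 were called higher and 0 lower (18.8%, against 3.74% of all members and 2.20% called higher), while the list's median log2 change was 0.06 and 18 of the 32 were higher. Cnih3, an auxiliary subunit that slows AMPA receptor closing, was at 10.40 and 25.14 FPKM against 47.89 and 57.22 FPKM (log2 change 1.63, adjusted p = 0.0394). Grm2, a presynaptic metabotropic receptor, was at 0.33 and 1.31 against 3.57 and 4.68 FPKM (1.54, adjusted p = 0.0179). Grin3a, the NMDA receptor subunit that lowers calcium entry, was at 2.17 and 2.50 against 5.67 and 9.85 FPKM (1.35, adjusted p = 0.0171). These were genes of low or moderate level, and the groups did not overlap in any of them. Neto1, a kainate and NMDA receptor partner, was at 4.21 and 5.25 against 8.79 and 13.81 FPKM (1.08). Shisa9, an AMPA receptor partner, was at 3.72 and 3.41 against 6.30 and 11.25 FPKM (1.05), and Grm3, a receptor close to Grm2, at 2.40 and 3.37 against 5.31 and 6.30 FPKM (0.82). Cnih3, Shisa9 and Grm3 were each called in 4 of the 10 fits with a library left out. No member of the list was called without WT-labelled 1 or without KO-labelled 2. In those fits the log2 changes were 1.03 and 1.5 for Cnih3, 1.14 and 1.38 for Grm2, 1.28 and 1.00 for Grin3a, 0.95 and 0.78 for Neto1, 1.1 and 0.68 for Shisa9, and 0.64 and 0.71 for Grm3, and the list's medians were 0.07 and 0.04.

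On the inhibitory side, 1 of 21 tested GABA genes was called (4.76%, against 3.74% of all members). Gabra3, an X-linked GABA-A receptor subunit, was at 20.06 and 21.84 FPKM against 29.88 and 34.66 FPKM (log2 change 0.60, adjusted p = 0.0416), and it was called in 2 of the 10 fits with a library left out. Gabra2, the alpha 2 subunit, was at 39.54 and 49.00 against 23.91 and 34.38 FPKM, lower in both KO-labelled libraries but not called (-0.60, SE 0.16, adjusted p = 0.0617). After exploration the same gene differed by -1.46 (adjusted p = 2.34e-04), and the difference between the environments was not called (0.86, adjusted p = 0.0639).

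Synaptic scaffold, kinase and adhesion genes had 1 call higher and 2 lower among 38 tested (7.89%, against 3.74% of all members). Camk2b, the beta subunit of the calcium-dependent kinase of synaptic plasticity, was at 467.21 and 464.05 FPKM against 336.91 and 287.32 FPKM (log2 change -0.58, adjusted p = 0.0287). Nrxn3, a presynaptic adhesion protein, was at 46.45 and 48.02 against 31.51 and 24.34 FPKM (-0.75, adjusted p = 0.0132). Nrxn2 of the same family moved the other way, at 36.42 and 33.19 against 44.95 and 45.37 FPKM (0.37, adjusted p = 0.0360). Of 30 tested genes of vesicle release, 2 were called (6.67%). The calcium sensor Syt7 fell (57.84 and 55.04 against 37.04 and 30.99 FPKM, log2 change -0.72, adjusted p = 0.0179). The vesicle protein Sv2b rose from 112.14 and 116.67 to 134.85 and 164.27 FPKM (0.38, adjusted p = 0.0493). Nrxn2 and Sv2b were called in 2 and 3 of the 10 fits with a library left out. Camk2b and Syt7 were not called without WT-labelled 2 (-0.59 and -0.75). Neither list had a called member without WT-labelled 1 or without KO-labelled 2, where the log2 changes were -0.58 and -0.47 for Camk2b, -0.77 and -0.57 for Nrxn3, 0.43 and 0.36 for Nrxn2, -0.68 and -0.59 for Syt7, and 0.35 and 0.24 for Sv2b.

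Voltage-gated channel genes had 3 calls higher and 6 lower among 61 tested (14.8%, against 3.74% of all members), with a median log2 change of -0.03. Kcnab1, a beta subunit of potassium channels, was at 211.24 and 213.31 FPKM against 147.07 and 113.50 FPKM (-0.71, adjusted p = 0.0157). Kcnq5, which carries part of the M-current that restrains firing, was at 15.26 and 11.08 against 7.60 and 5.62 FPKM (-0.89, adjusted p = 0.0147). With Scn4b, described above, the other called falls were in Scn3b, Kcnk2 and Cacna1a, with log2 changes of -0.52, -0.69 and -0.42. Scn3b, Kcnk2 and Cacna1a were called in 4, 5 and 3 of the 10 fits with a library left out. Kcnd3, an A-type potassium channel, was at 1.82 and 2.39 against 4.38 and 7.61 FPKM (1.14, adjusted p = 0.0328). Cacnb3, a calcium channel beta subunit, was at 77.20 and 87.05 against 115.99 and 115.26 FPKM (0.49, adjusted p = 0.0209), and Kcna6 rose by 1.05. Kcna6 was called in 4 of the 10 fits with a library left out. Kcnab1 and Kcnd3 were not called without WT-labelled 2 (-0.70 and 1.27). Without KO-labelled 1 the list had 6 calls higher and 8 lower, and without WT-labelled 2 it had 1 and 2. Again 0 of the 61 were called without WT-labelled 1 and 0 without KO-labelled 2, against 9 in the fit of all libraries. The log2 changes of Kcnab1, Kcnq5, Kcnd3 and Cacnb3 were then -0.72, -0.68, 1.01 and 0.41, and -0.53, -0.70, 0.80 and 0.50.

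Among 19 tested neuropeptide and neurotrophin genes, Nts and Pcsk1n, the precursor of a convertase inhibitor, were called higher (10.5%, against 3.74% of all members). Pcsk1n was at 310.07 and 277.54 FPKM against 443.04 and 365.93 FPKM (log2 change 0.46, adjusted p = 0.0363), and it was called in 2 of the 10 fits with a library left out. Grp, the precursor of gastrin-releasing peptide, had the largest difference of the list without passing the test, at 1.73 and 9.36 against 40.28 and 58.83 FPKM (3.22, SE 0.87, adjusted p = 0.0653). With only the 4 home cage libraries in the fit its adjusted p was 0.00954. Grp was named after its values were seen.

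Lists of stress and metabolism differed in their share of calls, set here against 3.74% of all members. Among 25 tested glucocorticoid-responsive genes 3 were called (12%). Htra1, a secreted protease, rose (34.49 and 33.02 against 43.88 and 44.54 FPKM, log2 change 0.38). Cebpd, a transcription factor, fell (18.96 and 17.84 against 11.88 and 7.03 FPKM, -0.93), and so did Rasd1, a small GTPase (116.09 and 104.66 against 78.04 and 49.21 FPKM, -0.82). Fkbp5, the receptor co-chaperone that is the usual readout of glucocorticoid action, was at 14.41 and 12.25 against 15.62 and 18.97 FPKM and was not called (adjusted p = 0.156), and neither were Sgk1 (adjusted p = 0.318) and Per1 (adjusted p = 0.949). Among 42 hypoxia and glycolysis genes, Ndrg1 and Aldoc were called (4.76%), and the growth factor Vegfa was at 3.27 and 5.09 against 4.50 and 6.42 FPKM (adjusted p = 0.427). By limma 0 of 23 clock genes, 0 of 42 heat shock genes, 0 of 29 unfolded protein response genes and 0 of 25 cholesterol synthesis genes were called. An unadjusted p under 0.05 was found in 6, 5, 1 and 1 of them, against 2155 of all 11639 members. Among 11 interferon response genes 1 was called (9.09%), the class I histocompatibility gene H2-D1, which fell from 9.34 and 8.53 to 5.40 and 5.17 FPKM (-0.66, adjusted p = 0.0179). Without WT-labelled 1 and without KO-labelled 2, Htra1 (0.41 and 0.37), Cebpd (-0.89 and -0.59), Rasd1 (-0.75 and -0.49) and H2-D1 (-0.60 and -0.63) were not called. Htra1 was called in 2 of the 10 fits with a library left out. Cebpd and Rasd1 were not called without WT-labelled 2 either (-0.97 and -0.89).

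Antioxidant enzymes had 1 call among 41 tested (2.44%, against 3.74% of all members). It was Nnt, the mitochondrial transhydrogenase that supplies NADPH, at 10.14 and 9.56 FPKM against 4.05 and 4.62 FPKM (log2 change -1.03, SE 0.11, adjusted p = 0.00154), and its call survived every library left out in turn. The large housekeeping families had few calls and small median changes. Cytosolic ribosomal protein genes were higher in 78 of 80, against 5338 of 11639 members, with a median of 0.18. Without overlap 36 were higher and 0 lower, against 21.0% and 25.9% of all members. The 1 call was Rps20 (18.31 and 19.14 against 29.13 and 23.34 FPKM, 0.46, adjusted p = 0.0333). The size of that shift depended most on the KO-labelled libraries. The list's median was 0.02 with 47 of 80 higher without KO-labelled 1, and 0.33 with 80 of 80 higher without KO-labelled 2. It was 0.18 without WT-labelled 1 and 0.16 without WT-labelled 2. Rps20 was not called without any one of the 4 home cage libraries (0.30 to 0.61). Nuclear genes of oxidative phosphorylation had 0 calls among 77 and a median of 0.06, which became -0.04 without KO-labelled 1. limma called 0 of 77 mitochondrial ribosomal protein genes and 0 of 35 proteasome genes. An unadjusted p under 0.05 was found in 8 and 2 of them, against 2155 of all 11639 members.

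**Figure D3:**
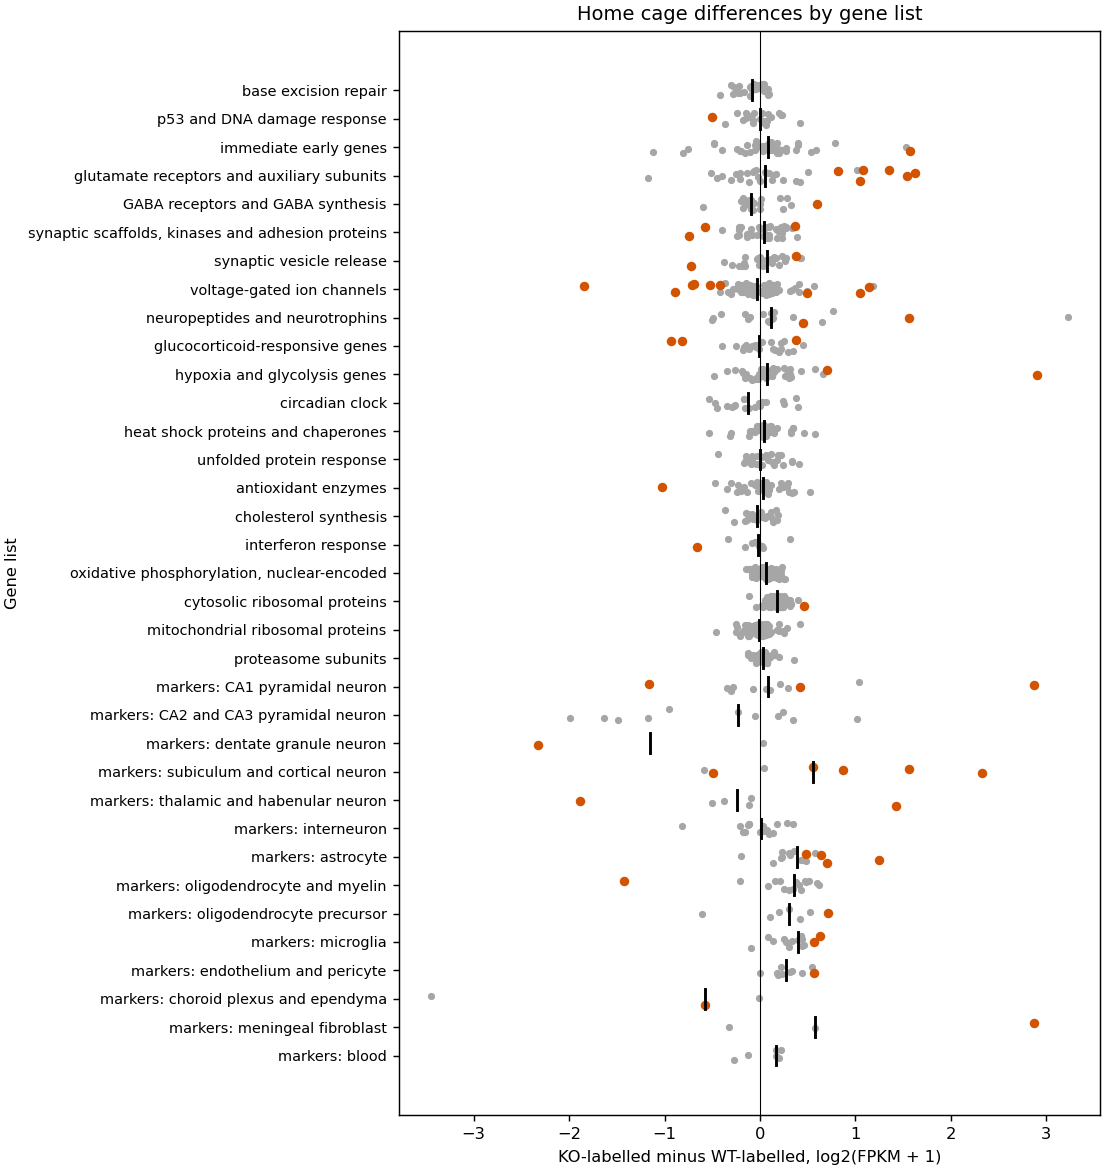
Difference between the labelled genotypes (x axis, log2(FPKM + 1)) of every tested gene of each list (y axis), with called genes in orange, the others in grey, and the list's median as a black bar. The astrocyte and microglia lists sit to the right of 0, with medians of 0.39 and 0.40. The ribosomal, oxidative phosphorylation and proteasome lists form narrow bands near 0, with the cytosolic ribosomal median at 0.18.

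Markers of CA1 pyramidal neurons were present in all 4 libraries, with summed levels of 1035.1 and 1104.9 FPKM in the WT-labelled and 1181.3 and 1103.9 FPKM in the KO-labelled libraries, which overlapped. Of 12 markers, 2 were called higher (Dcn and Mpped1) and 1 lower (25% called, against 3.74% of all members). The fall was in Wfs1, an endoplasmic reticulum protein known to be stronger in dorsal CA1, at 218.93 and 192.41 FPKM against 127.30 and 64.88 FPKM (log2 change -1.17, SE 0.26, adjusted p = 0.0340). Dcn is known to be stronger in ventral CA1. In these libraries the highest Dcn and the lowest Wfs1 were in KO-labelled 2, and the part that the cut along the long axis had in the result was not tested. Wfs1 and Mpped1 were not called without WT-labelled 1 (-1.07 and 0.30) or KO-labelled 2 (-0.68 and 0.37). Each of them was called in 4 of the 10 fits with a library left out.

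Markers of other neurons were read in the same way. Of 11 tested CA2 and CA3 markers, limma called 0, with 6 at an unadjusted p under 0.05 (against 2155 of all 11639 members). The summed level was highest in WT-labelled 1 (628.4 FPKM against 449.9 to 482.1 FPKM in the other 3 libraries, or 313.8 against 152.1 to 166.4 FPKM without Dkk3). Without WT-labelled 2, 5 of the 11 were called lower. Of 12 dentate markers only Lct and Il1rap were high enough to be tested, and the defining markers Prox1, C1ql2 and Dsp were at most 0.5, 0.3 and 0.01 FPKM in any library. The subiculum and cortical list summed to 188.5 and 195.2 against 181.8 and 199.3 FPKM, or 59.1 and 64.7 against 83.4 and 113.6 FPKM without Lmo3, the largest member. It had 4 calls higher and 1 lower among 7 tested (71.4%, against 3.74% of all members). Besides Rprm and Nts these were Fezf2, a factor of deep-layer projection neurons (15.50 and 22.38 against 32.12 and 38.04 FPKM, 0.87), Etv1 (17.88 and 20.08 against 24.08 and 33.28 FPKM, 0.56) and, lower, Lmo3 (129.41 and 130.57 against 98.37 and 85.74 FPKM, -0.50). Of 6 tested thalamic markers, 2 were called (33.3%). Ntng1, which encodes the adhesion protein netrin-G1, rose (0.84 and 1.07 against 2.79 and 6.28 FPKM, 1.43) and Plekhg1 fell. The defining markers Tcf7l2 and Prkcd were at most 0.35 and 0.69 FPKM. Fezf2, Etv1, Lmo3 and Ntng1 were not called without WT-labelled 1 or without KO-labelled 2, where the log2 changes were 0.62 and 0.75 for Fezf2, 0.48 and 0.33 for Etv1, -0.50 and -0.40 for Lmo3, and 1.34 and 0.96 for Ntng1. Etv1 and Lmo3 were called in 4 and 5 of the 10 fits with a library left out. Ntng1 was not called without WT-labelled 2 either (1.51). By limma 0 of 16 interneuron markers were called, 2 at an unadjusted p under 0.05, with summed levels of 1999.9 and 1873.6 against 2002.3 and 1582.7 FPKM, of which Cck, which pyramidal neurons also express, made up 82.5%.

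Markers of astrocytes, microglia and oligodendrocyte precursors summed to more in both KO-labelled libraries than in either WT-labelled one. Astrocyte markers summed to 241.0 and 254.0 FPKM in the WT-labelled and 337.7 and 385.8 FPKM in the KO-labelled libraries, a ratio of the group means of 1.46. Of 16 tested, 15 were higher, 14 without overlap (against 21.0% of all members), with a median log2 change of 0.39. Of the 16, 4 were called (25%, against 3.74% of all members). Gfap, the intermediate filament of astrocytes, was at 13.25 and 14.68 against 29.79 and 39.74 FPKM (1.24, SE 0.19, adjusted p = 0.0104). Aldoc, the astrocytic aldolase, was at 65.61 and 71.30 against 108.85 and 114.76 FPKM (0.70, adjusted p = 0.0183). Aqp4, the water channel of astrocyte endfeet, was at 3.72 and 4.23 against 6.16 and 7.32 FPKM (0.64), and Mlc1, a membrane protein of the same endfeet, at 12.75 and 15.58 against 18.45 and 21.77 FPKM (0.48). Mlc1 was called in 4 of the 10 fits with a library left out, and Aqp4 was not called without WT-labelled 2 (0.71). In a bulk sample more cells of a type and more RNA per cell cannot be told apart. The list's median was 0.35 without WT-labelled 1 and 0.30 without KO-labelled 2, with 15 of 16 higher in both, while none of the 4 genes was called (Gfap 1.18 and 1.04, Aldoc 0.64 and 0.66, Aqp4 0.56 and 0.53, Mlc1 0.34 and 0.37).

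Microglial markers were higher in 14 of 15 tested, against 5338 of 11639 members, with 2 of 15 called (13.3%, against 3.74%) and sums of 94.0 and 92.1 against 117.6 and 127.1 FPKM. C1qc, a complement subunit (10.02 and 9.80 against 14.83 and 16.95 FPKM, 0.63), and P2ry12, a purine receptor of resting microglia (2.98 and 3.84 against 5.50 and 5.49 FPKM, 0.57), were called. The oligodendrocyte precursor list summed to 25.3 and 26.5 against 34.7 and 41.0 FPKM with 1 call, the lineage factor Olig1 (9.28 and 11.23 against 15.92 and 18.93 FPKM, 0.71). Olig1 made up 43.4% of this sum. Of 7 tested precursor markers, 6 were higher, with a median log2 change of 0.30. That median was 0.32 without WT-labelled 1 but 0.04 without KO-labelled 2. Pdgfra and Cspg4 were at most 0.99 and 0.63 FPKM. Vcan was lower (1.7 and 1.01 against 0.61 and 0.46 FPKM), but it was a member through the WT-labelled pair alone. Myelin genes summed to 245.1 and 189.3 against 246.4 and 286.6 FPKM, and without Mbp, the largest member, to 134.1 and 100.7 against 121.4 and 133.3 FPKM, which overlapped. They were higher in 14 of 16, and the single call was a fall, in Enpp2 (41.87 and 15.08 against 8.72 and 8.89 FPKM, -1.42), which the choroid plexus also expresses and which was highest in the library with the highest Ttr. Without WT-labelled 1 its change was -0.71 and it was not called. Endothelial and pericyte markers summed to 363.6 and 354.6 against 432.9 and 402.9 FPKM. Bsg, which many cell types express, made up 82.3% of this, and the rest summed to 60.7 and 60.4 against 69.8 and 84.1 FPKM, with the endothelial gene Ly6c1 called (9.2 and 7.65 against 12.13 and 13.69 FPKM, 0.56). Blood genes summed to 425.0 and 400.2 against 440.2 and 468.4 FPKM with 0 calls by limma among 6, and 0 at an unadjusted p under 0.05. Choroid plexus markers summed to 241.8 FPKM in WT-labelled 1 and to 19.8, 16.6 and 11.6 FPKM in WT-labelled 2 and KO-labelled 1 and 2, with 1 of 3 called, Kl, the co-receptor of fibroblast growth factors (14.70 and 13.74 against 9.83 and 8.61 FPKM, -0.58). Meningeal markers summed to 49.5 and 50.8 against 53.7 and 127.6 FPKM, 81.4% of it from Ptgds. Dcn was the only call among 3, and Col1a1 and Lum were at most 0.25 and 0.37 FPKM. None of these calls was made without WT-labelled 1 or without KO-labelled 2, where the changes were 0.64 and 0.54 for C1qc, 0.42 and 0.57 for P2ry12, 0.59 and 0.59 for Olig1, 0.68 and 0.48 for Ly6c1, and -0.53 and -0.49 for Kl. P2ry12, Olig1 and Kl were each called in 4 of the 10 fits with a library left out, and Ly6c1 in 5. C1qc was not called without WT-labelled 2 either (0.61). The part of cell composition in the 435 calls was not tested.

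**Figure D4:**
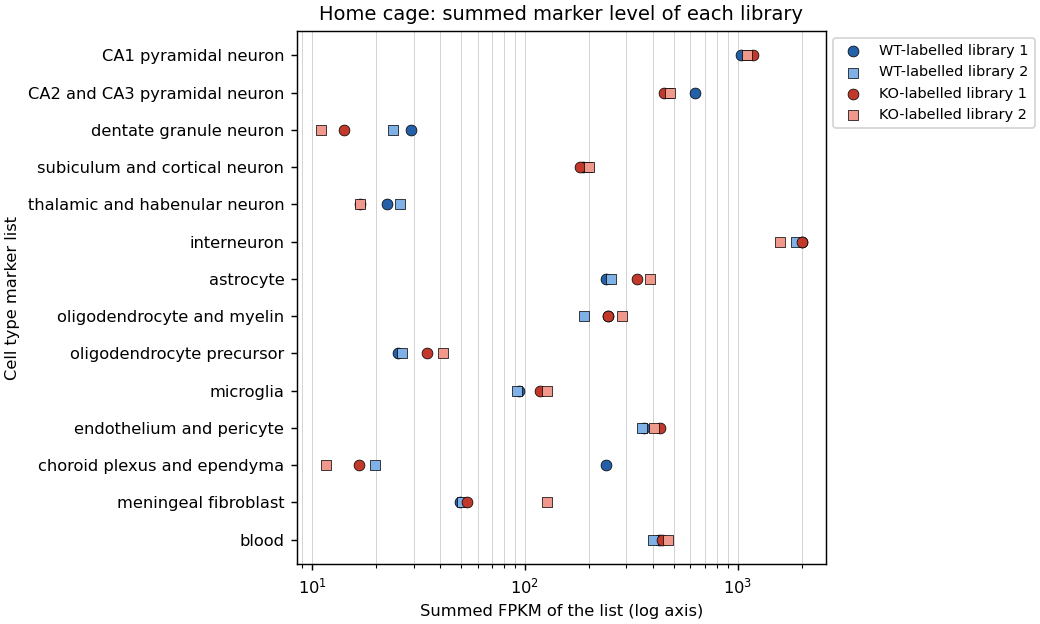
Summed FPKM of each cell type marker list (x axis, log scale) in the 4 home cage libraries, 1 marker per library, with the lists on the y axis. The astrocyte sums of the KO-labelled libraries lie to the right of both WT-labelled ones, and the choroid plexus sum of WT-labelled 1 (241.8 FPKM) lies far from the other 3 libraries.

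Of the 435 genes, 10 were called in every one of the 10 fits with a library left out (0.0859% of members). They were Neil3, Ccl21b, Gm3893, S100a1 and Scrg1, higher in the KO-labelled libraries, and Srp54c, Mid1, Wdfy1, Nnt and Epha10, lower. Neil3, Ccl21b, Gm3893 and Srp54c were members only through the pair where they were high. The same member genes were used in every fit, so these fits cannot test that selection. S100a1, Scrg1 and Epha10 were named after their values were seen. S100a1, a calcium-binding protein, was at 20.27 and 17.91 FPKM against 41.33 and 37.74 FPKM (log2 change 1.01, SE 0.12, adjusted p = 0.00353). Scrg1, a small secreted protein, was at 6.10 and 5.72 against 11.54 and 13.87 FPKM (0.98, SE 0.11, adjusted p = 0.00208). Epha10, an ephrin receptor without kinase activity, was at 11.05 and 11.03 against 5.79 and 4.68 FPKM (-0.96, SE 0.11, adjusted p = 0.00268). In Gm3893 the KO-labelled values differed from each other by almost as many FPKM as the lower of them did from the WT-labelled ones.

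The libraries of exploring mice gave the same contrast in other animals. There, 68 of the 11639 genes were called (0.584%). Of the 435 home cage genes, 14 were called after exploration too, 13 in the same direction. The 13 were Neil3, Ccl21b, Gm3893, Scrg1 and Gm20594, higher, and Srp54c, Erdr1, Mid1, Wdfy1, Nnt, Wdr17, Plch1 and 1700047I17Rik2, lower. The other was Mir703. Wdfy1, for example, averaged 7.96 FPKM in the WT-labelled and 1.55 FPKM in the KO-labelled exploration libraries (-1.82), and Nnt 9.12 against 5.16 FPKM (-0.71). Of the 10 genes called with every library left out, S100a1 (0.21) and Epha10 (-0.09) were the ones without a call after exploration, at adjusted p = 0.302 and 0.65.

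Most of the other home cage calls had no counterpart after exploration. The sign was the same in 215 of 435 genes (49.43%), against 53.47% of all members, and the exploration difference was smaller than 0.25 in size in 341 (78.39%). Genes called higher in the home cage had a median log2 change of 0.72 there and -0.04 after exploration, and those called lower had -0.66 and -0.05. Ndrg1 averaged 7.23 FPKM in WT-labelled and 7.53 FPKM in KO-labelled exploration libraries, and Nnat 69.6 against 72.0 FPKM. Wfs1 averaged 206.6 against 198.8 FPKM, and Gfap 23.0 against 29.2 FPKM (0.35, adjusted p = 0.267). The 435 had been called by the home cage contrast, which is part of the test of the difference between the environments. That test called 124 genes (1.07%), 97 of them among the 435. That count was 0 with a pseudocount of 0.1 and ranged from 0 to 496 as single libraries were left out.

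**Figure D5:**
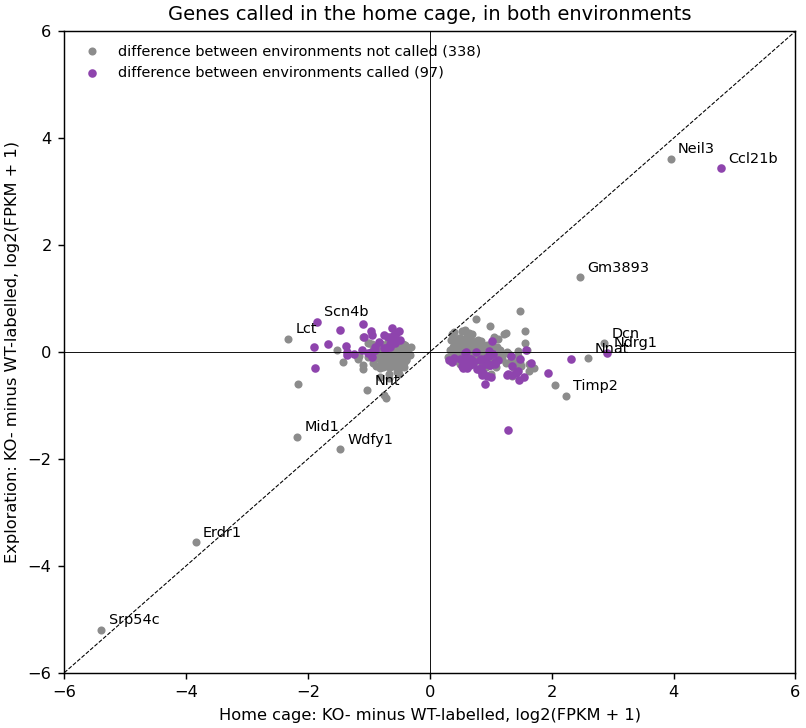
Difference between the labelled genotypes in the home cage (x axis) and after exploration (y axis), both log2(FPKM + 1), for the 435 genes called in the home cage, 1 point per gene. Most points lie along the horizontal line at 0. Neil3, Srp54c, Erdr1, Mid1 and Wdfy1 lie near the diagonal, and Ccl21b, at 4.78 and 3.44, lies below it.

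The called genes were spread over the genome, from 2.28% of tested genes on chromosomes 13 and 19 to 5.81% on chromosome 15. Around Neil3 on chromosome 8, 12 other tested genes lay within 5 Mb, of which 3 were called (25%, against 3.74% of all members). Of the 12, Hpgd, called, and Aga, not called, were members through the WT-labelled pair alone. Scrg1, 3.85 Mb away, was higher. Wdr17, of the WD repeat family and 1.07 Mb away, was at 10.08 and 10.73 FPKM against 6.05 and 6.30 FPKM (log2 change -0.67, adjusted p = 0.0131). Hpgd, which inactivates prostaglandins and lies 2.69 Mb away, was at 1.46 and 1.13 against 0.29 and 0.68 FPKM (-0.64, adjusted p = 0.0496). Aga, the neighbour at 0.1 Mb, a lysosomal amidase, was at 1.73 and 1.42 against 0.65 and 0.90 FPKM and was not called (-0.54, adjusted p = 0.0803). Within 20 Mb, 6 of 173 were called (3.47%), close to the share of all members. Wdr17 was not called without WT-labelled 1 (-0.71) or KO-labelled 2 (-0.69), Hpgd was called in 2 of the 10 fits with a library left out (-0.53 and -0.83 without the same libraries), and Wdr17, Hpgd and Aga were named for their position after their values were seen.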

How the data were processed

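Bulk RNA of CA1 was sequenced as paired reads, per the labels' protocols. The authors deposited FPKM per gene and library, scaled to transcript length and library depth. The submitters' processing notes name HISAT, StringTie, GATK, Bowtie2 and RSEM and the builds GRCm38 and mm10, without saying which step used which. Strand use and counts per library are not given in the sources used here, so overlapping and antisense genes are uncertain, depth was not computed, and the counting error of low values is unknown. Home cage and exploration libraries stand in separate tables, joined here on gene ID, and whether they were normalized together is not given in the sources used here.

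Each member gene was tested with limma 3.58.1 (R 4.3.3) on log2(FPKM + 1) with a variance trend, checked first on simulated data. The scale understates changes of low genes. All 10 libraries were fitted with 1 mean per group (6 residual and 5.77 prior degrees of freedom), and the home cage contrast uses the 4 home cage libraries. Adjusted p-values are Benjamini-Hochberg over the 11639 genes, and called means under 0.05. P-values measure only the spread between these libraries. The difference between environments is the home cage contrast minus the exploration contrast, each within 1 table.

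Named genes were Neil3, the 12 largest called rises and the 12 largest called falls without overlap, up to 5 called members of each list, and 12 genes given whatever their test. Genes named beyond these were chosen after their values were seen. Among them are Grp, Arc, Cnih3, Kcna6, Scn3b, Kcnk2, Cacna1a, Ttr, Pcp4, Amigo2 and Mir703. The members and the lists (21 pathway lists and 14 marker lists) were chosen with earlier results of these data known. Positions and promoters are from RefSeq (GRCm38.p6), matched on gene ID for 11616 members. For 24 genes whose symbol had turned into a date, the gene ID was used. Alternatives were other pseudocounts, filters, scalings, variance settings and weights, only the home cage libraries, and each library left out.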

Additional observations from a re-analysis of the deposited data

Results flagged for a closer look

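For 22 of the named genes the difference between the labelled genotypes in the home cage departed from that after exploration by limma's test of the difference itself, with adjusted p between 0.0469 and 0.049, close to the threshold. Many named genes were chosen by their home cage contrast, which is part of this test, so the number called among them is raised by that choice. Over all 11639 members the test called 124 (1.07%). That test called 0 genes with a pseudocount of 0.1, with no filter on low values, without a variance trend, with weights set by environment, without WT-labelled home cage library 1, without KO-labelled home cage library 2, without WT-labelled exploration library 1 and without KO-labelled exploration library 3, so none of the 22 was called there. The values are log2 changes in the home cage minus those after exploration. Larger in the home cage were Ndrg1 (2.92), Rprm (2.45), Kit (2.33), Grm2 (2.01), Nr2f2 (1.88), Grin3a (1.79), Fosl2 (1.53), Ccl21b (1.34), Neto1 (1.30), Fezf2 (1.27), Etv1 (0.83) and Nrxn2 (0.55). More negative in the home cage were Scn4b (-2.41), Itga7 (-1.98), Strip2 (-1.88), Olfm3 (-1.82), Plekhg1 (-1.59), Kcnq5 (-0.99), Sesn1 (-0.89), Nrxn3 (-0.83), Kcnab1 (-0.79) and H2-D1 (-0.75). In 21 of the 22 the gene was not called after exploration, and Ccl21b was called higher in both environments. The environments are in separate tables, and each contrast stays within 1 table.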

How the results depend on the processing

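The called genes numbered 435, with 256 higher and 179 lower. With no filter on low values (17803 genes tested) they numbered 47, with 22 higher and 25 lower, and weights set by environment gave 269, with 154 and 115. The cause was not tested. Leaving out 1 library gave 13 to 604 in all, 6 to 331 higher and 6 to 284 lower. The other 8 analysis settings gave 312 to 647. Calls of the difference between environments, 124 as reported, were 0 with a pseudocount of 0.1, 0 with no filter, 0 without a variance trend, 0 with weights set by environment, 227 with quantile normalization, 717 with a weight per library, and 0 to 496 with 1 library left out. No called gene among those named changed sign under any alternative run. No paired analysis was possible because the labels give the home cage libraries of the labelled genotypes no shared replicate numbers.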
